A study of Mus musculus with 12 samples.

Results

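The 10 genes described here carry the growth hormone, IGF and insulin signal from hormone to adaptor protein, and they were taken by gene symbol from a table of 25239 genes. They are Ghr, Igf1, Igfals, Igfbp1, Igfbp3, Igf1r, Igf2r, Insr, Irs1 and Irs2. The study asked how repeated heat waves alter the brain and liver of old animals. Male C57BL6/J wild-type mice aged 24 months were held at 40 °C for 3 hours per day over 15 days (heat stress) or were kept as controls, whose handling the labels do not describe further. Messenger RNA of both tissues was sequenced, which gave 12 libraries, 3 for each combination of tissue and condition. Control and heat-stressed animals shared age, strain, sex and genotype, and no label ties a brain library and a liver library to the same mouse. The brain region that was sampled is not given in the sources used here.

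Growth hormone from the pituitary binds its receptor Ghr, and in hepatocytes the JAK2 and STAT5 cascade behind that receptor drives transcription of Igf1 and Igfals. In blood, IGF1 travels in a complex with IGFBP3 and the acid-labile subunit encoded by Igfals, while IGFBP1 is a short-lived hepatic carrier whose transcription insulin represses through the FOXO factors. IGF1 and insulin act on the receptor tyrosine kinases Igf1r and Insr, which signal through the adaptors Irs1 and Irs2, and Igf2r takes up IGF2 and lysosomal enzymes without signalling as a kinase.

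The libraries held between 10466198 and 15609040 counts each. All 6 neuron markers were present in every brain library. In liver, 7 of 8 hepatocyte markers were abundant, and the exception was the urea cycle gene Ass1, with a group mean of 1.34 CPM in controls and 0.99 CPM in heat stress. A pair of liver libraries contained skeletal muscle transcripts: the summed level of 8 muscle genes was 340 CPM in control replicate 1 and 1961 CPM in heat stress replicate 2, against 1.02 to 6.46 CPM in the other 4 liver libraries. Control replicate 1 also held brain transcripts, with 132 counts of the neuronal gene Snap25 against 0 to 14 in the other livers and 170 of the myelin gene Mbp against 7 to 47. Values for the liver members are therefore also given without these 2 libraries. In brain, markers of other structures differed between the groups, and these values stand beside the brain results. In such bulk tissue, fewer cells of a type and less RNA per cell cannot be told apart.

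Some of the members' promoters hold motifs through which insulin or growth hormone can act on transcription. Windows from 250 bases before to 50 bases after the transcription start were available for 9 of the 10 members in RefSeq (GRCm38.p6). The core of the insulin response sequence, CAAAACA on either strand, which FOXO factors bind, was found in 3 of these 9 members (Igfbp1, Irs1 and Irs2), whereas 6.28% of all 32851 promoter windows and 7.20% of 27025 genes held it. It began 108 bases before the start of Igfbp1, 111 and 32 bases before the start of Irs1 and 37 bases before the start of Irs2. These starts are those of RefSeq, whereas the gene spans given below are from GENCODE. The printed windows of Irs1 and Irs2 lie wholly outside these spans, and the sources differ most for Irs2. Its window ends at chr8:11008930, whereas its GENCODE span begins at chr8:11008458 on the minus strand. The spacing bound by STAT factors, TTCNNNGAA, was found in 1 of 9 members (Igfals) and in 8.30% of all windows. Cish, a feedback inhibitor of the growth hormone receptor described with the liver results, held this spacing at bases 1 and 12 of its transcript, and Socs3, a second feedback gene, held it 154 bases before its start. These 4 windows are printed because the members and the feedback gene that the liver results turn on hold the motifs, which are in capitals. The positions are chr11:7197537-7197786 on the plus strand for Igfbp1, chr1:82291440-82291569 on the minus strand for Irs1, chr8:11008930-11009049 on the minus strand for Irs2 and chr9:107296559-107296678 on the plus strand for Cish, and the first 3 end at the base before the transcription start. A match of letters is a description of the window and not evidence of binding.
Igfbp1: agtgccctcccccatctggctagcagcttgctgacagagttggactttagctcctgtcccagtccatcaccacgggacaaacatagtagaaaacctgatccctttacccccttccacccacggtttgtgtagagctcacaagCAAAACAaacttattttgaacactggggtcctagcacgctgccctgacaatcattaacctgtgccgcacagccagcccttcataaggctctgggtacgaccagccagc
Irs1: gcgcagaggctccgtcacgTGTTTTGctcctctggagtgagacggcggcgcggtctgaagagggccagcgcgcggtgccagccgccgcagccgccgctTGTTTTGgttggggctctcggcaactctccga
Irs2: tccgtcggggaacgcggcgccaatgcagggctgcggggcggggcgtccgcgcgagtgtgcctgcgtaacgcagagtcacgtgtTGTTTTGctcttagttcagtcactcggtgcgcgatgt
Cish: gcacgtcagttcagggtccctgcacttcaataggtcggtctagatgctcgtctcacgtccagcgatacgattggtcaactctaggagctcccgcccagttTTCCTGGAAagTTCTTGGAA

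The level of each member in control tissue set the scale on which the heat stress comparison could be read. To compare genes, counts were scaled over all 12 libraries and divided by the length of each gene's exons (CPM per kb). In control liver the hormone receptor Ghr (114 ± 15.2 CPM per kb, SD, n = 3) and its product Igf1 (104 ± 9.31) stood at the top, and their ranges overlapped. Igf1 was separated from the carriers Igfals (39.0 ± 16.2) and Igfbp1 (37.6 ± 25.2), which overlapped each other. Insr (11.4 ± 0.818), Igfbp3 (8.12 ± 4.12), Igf2r (5.89 ± 1.502), Irs1 (4.61 ± 0.944) and Irs2 (3.87 ± 4.21) followed in this order, each overlapping the next. Igf1r (0.121 ± 0.0522) lay apart at the bottom.

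In control brain the order was different, and an adaptor and 3 receptors led. Irs2 was highest (6.86 ± 1.48 CPM per kb) and separate from Insr (3.26 ± 0.0866), Igf1r (3.12 ± 0.501) and Igf2r (2.63 ± 0.540), whose neighbouring ranges overlapped. Igfbp3 (2.02 ± 0.214) and Irs1 (1.80 ± 0.312) overlapped each other, and Ghr (1.05 ± 0.110) and Igf1 (0.746 ± 0.0416) each stood apart below them. Igfbp1 and Igfals had at most 2 counts in any brain library.

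**Figure D1:**
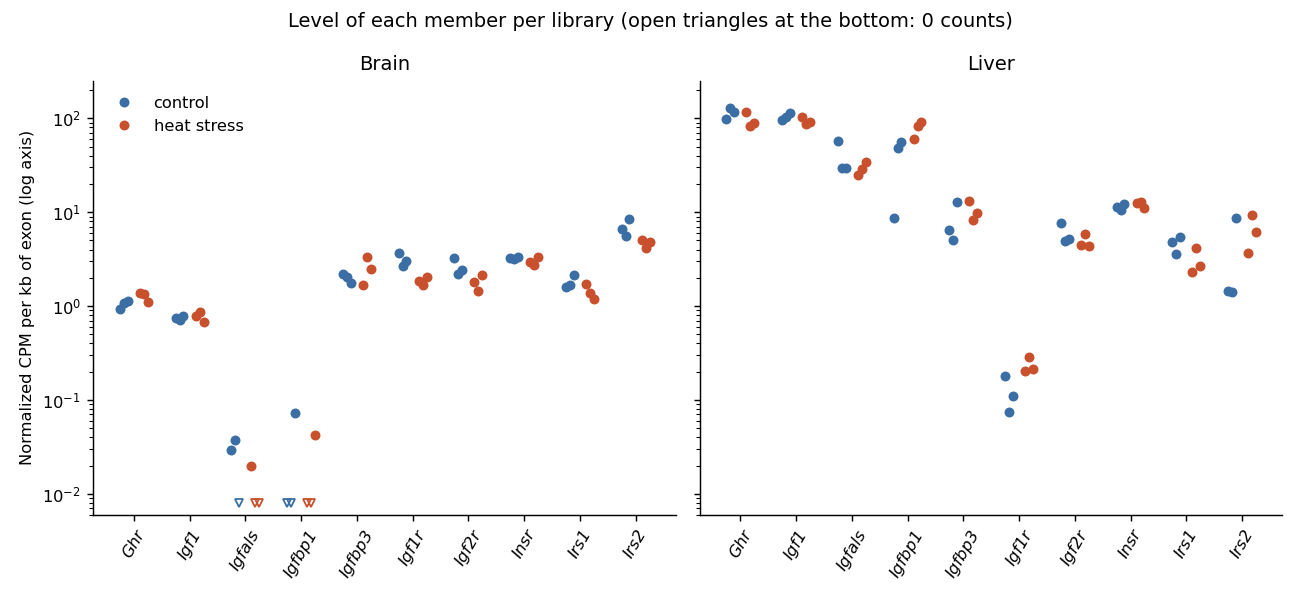
Level of the 10 members in each of the 12 libraries, as normalized CPM per kb of exon on a log axis, with brain on the left and liver on the right, control in blue and heat stress in red. Ghr and Igf1 lie near 100 in liver and near 1 in brain, and Igf1r is the lowest member in liver, at 0.0750 to 0.285.

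Tested directly between the control tissues, Igf1 was 140-fold higher in liver than in brain (log2 difference 7.13, SE 0.22, adjusted p = 1.55e-11, edgeR's quasi-likelihood test, Benjamini-Hochberg adjusted), and Ghr was 108-fold higher (6.75, SE 0.25). Igf1r was 25.3-fold lower in liver (log2 difference -4.66, SE 0.26, adjusted p = 1.46e-09). Of the other tested members, Igfbp3 (2.00), Insr (1.80), Irs1 (1.36) and Igf2r (1.16) were higher in liver. For Irs2 the log2 difference of -0.84 did not pass (adjusted p = 0.210), and control liver replicate 3 alone held most of its counts in control liver. With that library left out the difference was -2.25 and passed (adjusted p = 7.01e-05). Igfals was at least 763-fold and Igfbp1 at least 354-fold higher in liver, computed against 3 counts per library in brain, since brain was at or under that floor. Between these tissues 80.4% of 15824 tested genes passed, 36.1% higher and 44.2% lower in liver, so a difference alone says little about the members. Total-count scaling moved the median of all genes from -0.24 to -1.33 on the log2 scale. Relative to that shift the order of the members held and no direction changed, but Igf2r (0.06) and Irs1 (0.26) no longer passed and Irs2 (-1.90, adjusted p = 0.0191) did.

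In brain the comparison of heat stress with control gave lower levels of Igf1r, Igf2r and Irs2 in every heat-stressed library than in any control library, while the other 5 tested members overlapped between the groups. No member passed the adjusted threshold of 0.05 in edgeR's quasi-likelihood test, Benjamini-Hochberg adjusted. Across the tissue this test called 0 of 14806 genes (0%), against 2969 genes (20.1%) at an unadjusted p under 0.05, and DESeq2 on the same 6 libraries called 618 of the 7769 genes to which it gave an adjusted p (7.95%). At the unadjusted level 3 of 8 tested members were lower, where 10% of all tested genes were lower. Wholly below the controls lay 3 of 8 members and 12% of all genes, and wholly above them 0 of 8 members and 12.9% of all genes, so that groups without overlap made up 24.9% of all genes. Complete separation of 3 against 3 libraries has an exact two-sided permutation p of 0.1, the smallest that this design allows. The median log2 fold change was -0.21 over the 8 tested members and -0.00 over all tested genes.

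Igf1r, the IGF1 receptor, was the member with the smallest p in brain. It spans chr7:67952827-68233668 on the plus strand of GRCm38, with its exons, introns and UTRs. Its counts were 1310, 756 and 915 in the control libraries and 499, 462 and 530 in the heat-stressed ones, which corresponds to 89.7, 65.9 and 74.0 CPM against 46.0, 41.3 and 49.999 CPM. Even the lowest control library stood above the highest heat-stressed one. The log2 fold change was -0.74 (SE 0.14, 95% interval -1.06 to -0.43, adjusted p = 0.170, edgeR's quasi-likelihood test, Benjamini-Hochberg adjusted). DESeq2 on the same libraries gave -0.75 with an adjusted p of 0.00427, and DESeq2 on all 12 libraries an adjusted p of 0.0687. On the 6 libraries DESeq2 gave an adjusted p to 4 of the 8 members and called 2 of them, Igf1r and Irs2, both lower, where it called 3.86% of genes lower.

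Irs2, the adaptor that couples both kinases to phosphoinositide 3-kinase, spans chr8:10984681-11008458 on the minus strand. It measured 60.5, 51.7 and 77.6 CPM in controls and 47.6, 39.1 and 44.2 CPM after heat stress. The groups did not overlap, although the gap between control replicate 2 and heat stress replicate 1 was small beside the spread of the controls. Its log2 fold change was -0.54 (SE 0.16, 95% interval -0.89 to -0.18, adjusted p = 0.170 in edgeR and 0.0452 in DESeq2 on the 6 libraries). In the fits of all 12 libraries the adjusted p of Irs2 was 0.771 in DESeq2 and 0.772 in edgeR. Its relative Irs1 read 21.1, 22.5 and 28.6 CPM in controls and 23.2, 18.3 and 16.0 CPM in heat stress. These groups overlapped, and the log2 fold change of -0.33 (SE 0.17) had a 95% interval from -0.72 to 0.07. Without control replicate 3 it was -0.19, and without heat stress replicate 1 it was -0.49 and passed the unadjusted level.

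Igf2r, the uptake receptor for IGF2, measured 44.0, 30.2 and 33.0 CPM in controls and 24.4, 20.0 and 29.1 CPM in heat stress. The highest heat-stressed library stayed just below the lowest control library. Igf2r thus gave a log2 fold change of -0.55 (SE 0.18, 95% interval -0.96 to -0.14, adjusted p = 0.174 in edgeR and 0.0734 in DESeq2). The antisense RNA Airn is transcribed within Igf2r, and whether the counting used the strand is not given in the sources used here. Insr, the insulin receptor, was nearly level, with 65.7, 64.0 and 66.4 CPM in controls and 60.3, 55.1 and 67.5 CPM in heat stress, and a log2 fold change of -0.10 (SE 0.11, 95% interval -0.35 to 0.15). Heat stress replicate 3 was the highest of the 6 libraries for this gene.

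The growth hormone receptor and the ligand overlapped between the groups. Ghr read 12.3, 14.5 and 15.0 CPM in controls and 18.5, 17.9 and 14.5 CPM in heat stress, with a log2 fold change of 0.29 (SE 0.15, 95% interval -0.06 to 0.63). Heat stress replicates 1 and 2 stood above all controls, and replicate 3 lay among them. Igf1 ranged from 9.72 to 12.5 CPM over the 6 libraries, with a log2 fold change of 0.06 (SE 0.16, 95% interval -0.30 to 0.41). The carrier Igfbp3 read 10.1, 9.50 and 8.09 CPM in controls and 7.75, 15.5 and 11.3 CPM in heat stress, so that heat stress replicate 2 was the highest library and replicate 1 the lowest. This gave a log2 fold change of 0.32 (SE 0.24), 0.05 without replicate 2, and 0.53 without replicate 1, where it passed the unadjusted level. Igfals and Igfbp1 were not tested in brain, since neither had more than 2 counts in a library.

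**Figure D2:**
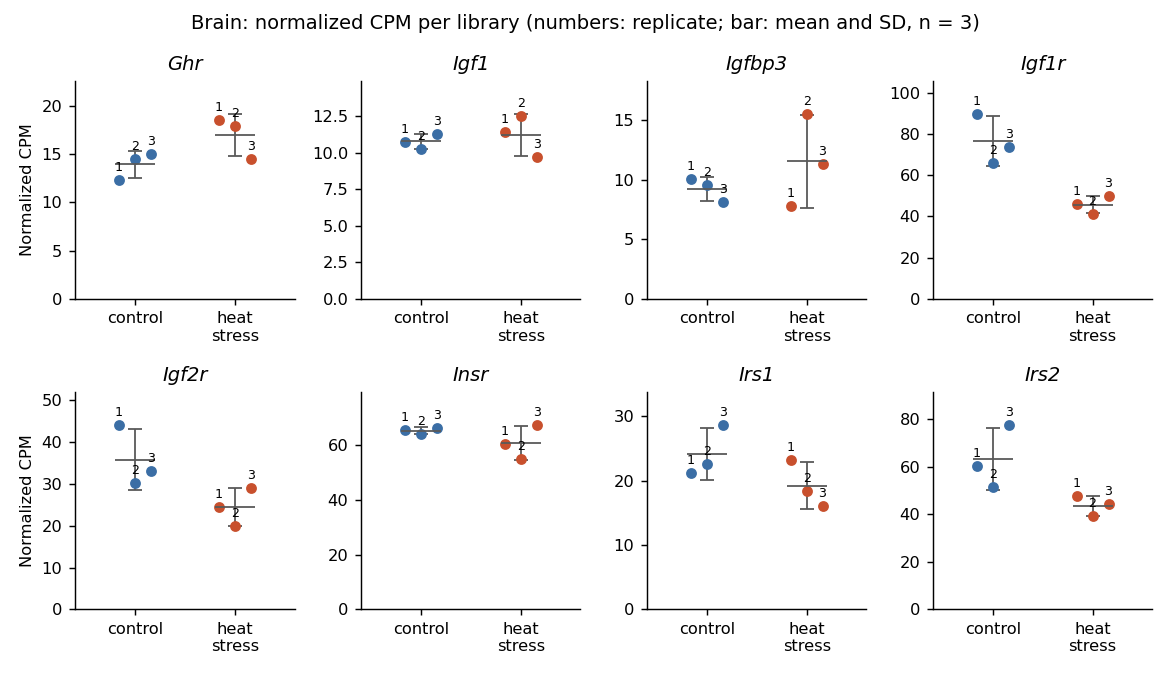
Normalized CPM of the 8 members tested in brain, for each library, with replicate numbers at the points, group means as horizontal ticks and SD as bars (n = 3 per group). The heat-stressed libraries lie wholly below the controls for Igf1r, Igf2r and Irs2 and overlap them for the other 5 genes.

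Signals of transcript length and of tissue composition moved with these brain values. Over all tested genes, the median log2 fold change in brain ran stepwise from 0.20 in the shortest of 5 equal classes of transcript length to -0.16 in the longest, where 24.0% of genes were lower and 3.26% higher at an unadjusted p under 0.05. In liver the same medians ran only from 0.05 to -0.03. Of the 8 members tested in brain, 6 belong to the longest class, and 3 of these 6 were lower at that level. With offsets for length and GC content the log2 fold change was -0.42 for Igf1r, -0.24 for Igf2r, -0.22 for Irs2 and -0.03 for Irs1, while Insr turned from -0.10 to 0.12 and Igf1 from 0.06 to -0.06. Ghr moved from 0.29 to 0.12 and Igfbp3 from 0.32 to 0.33. Igf1r was then the 1 member still under an unadjusted p of 0.05, with an adjusted p of 0.358.

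**Figure D3:**
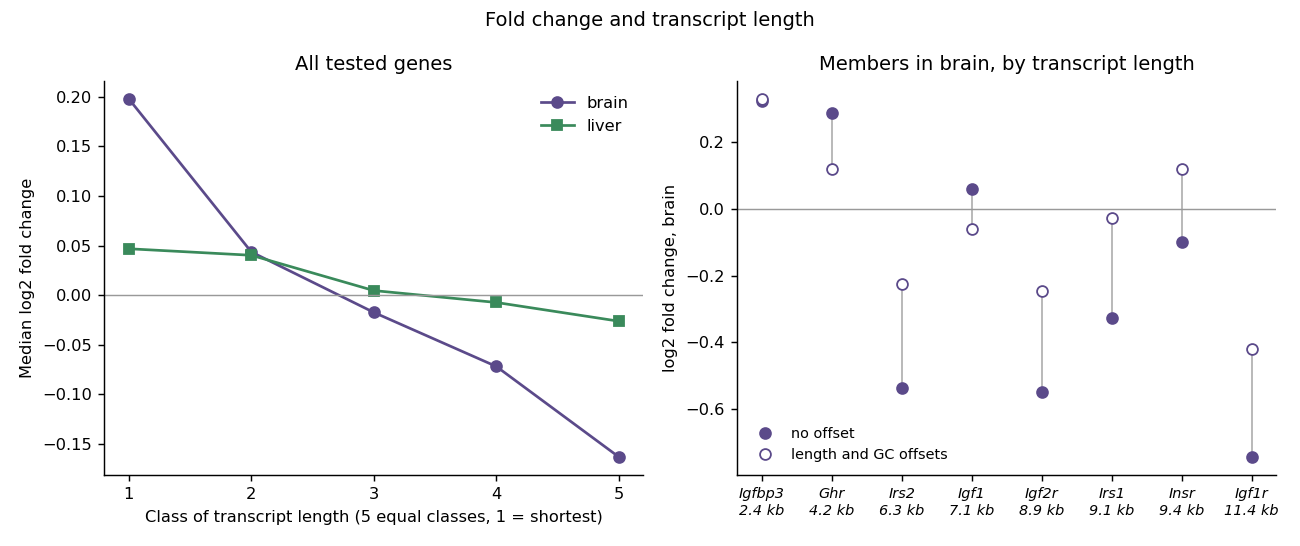
Left, median log2 fold change (heat stress minus control) of all tested genes in 5 classes of transcript length, for brain and liver. Right, log2 fold change of the 8 members in brain ordered by transcript length, without (filled) and with (open) length and GC offsets; the 4 lowest filled points move towards 0, Igf1r among them from -0.74 to -0.42.

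The summed level of 9 choroid plexus markers was 1261 to 2514 CPM in control brains and 263 to 1139 CPM in heat-stressed brains, with all 9 lower on average, 5 of them without overlap and none at the floor. With a choroid plexus score as a covariate, Igf1r stood at -0.89 and Igf2r at -0.89, whereas Irs2 stood at -0.35 and Irs1 at 0.02. In that fit Ghr was at 0.53, Igf1 at 0.32, Igfbp3 at 0.41 and Insr at -0.25. The summed choroid plexus level did not overlap between the groups. With 3 libraries per group such a covariate and the condition are therefore largely confounded, and these values are descriptions only. All 5 endothelial markers were lower without overlap (158 to 262 CPM summed in controls, 110 to 134 CPM in heat stress). All 7 striatal markers were higher (344 to 599 CPM against 591 to 1319 CPM). The part of endothelium and striatum in the values of the members was not tested. Meningeal markers summed to 166 CPM in heat stress replicate 2 and to between 52.4 and 113 CPM in the other brains, and the IGF ligand Igf2, a gene of the meninges and choroid plexus, was likewise highest in that library (180.5 CPM against 64.2 to 132 CPM). Growth hormone messenger RNA itself was at 14.0 CPM in heat stress replicate 2 and at 0 to 2.10 CPM in the other 5 brains. The pituitary markers Prl (38 counts against 0 to 18) and Cga (13 against 0 to 1) were also highest in that library. So was Pomc (122 counts against 16 to 77). Lhb went the other way, with 2 counts in each heat-stressed brain against 5 to 10 in controls. Tshb had at most 2 counts in any brain. The 5 pituitary markers summed to 15.7 CPM in heat stress replicate 2 against 1.78 to 7.32 CPM elsewhere. Igfbp3 was highest in this same library, and the part of pituitary or meninges in it was not tested.

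Among 84 further genes of the pathway, placed in 7 lists, 68 were tested in brain. None passed the adjusted threshold in edgeR's quasi-likelihood test, and 15 were lower and 1 higher at an unadjusted p under 0.05, beside 10% of all tested genes in each direction. Their median log2 fold change was -0.14. Of the 15, 7 sat in the insulin receptor cascade, the longest list, where 7 of 28 tested genes were lower and 1 was higher. As a rate this was not above that of the genes that insulin induces in liver, where 3 of 10 were lower. The 7 included the mTOR kinase gene Mtor (-0.50), its partner Rptor (-0.52), the upstream inhibitor Tsc2 (-0.46) and the lipid phosphatase Inppl1 (-0.46), and the 1 higher gene was Grb14 (0.38), an adaptor that inhibits the insulin receptor. Rptor, the gene with the smallest p on this list, read 86.2, 73.4 and 70.2 CPM in controls and 59.5, 48.0 and 53.3 CPM in heat stress. Its groups were separate (adjusted p = 0.170 in edgeR and 0.0235 in DESeq2), and with length and GC offsets its log2 fold change was -0.20.

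On the list of genes that insulin induces in liver, 3 of 10 were lower in brain at the unadjusted level, all without overlap. They were the fatty acid synthase gene Fasn (-0.56, adjusted p = 0.170 in edgeR and 0.0153 in DESeq2), Acaca (-0.42), which encodes acetyl-CoA carboxylase, and the lipogenic regulator Srebf1 (-0.28). With length and GC offsets Fasn stood at -0.13. Of the genes that insulin represses in liver, 1 of 4 tested was lower, the pseudokinase gene Trib1 (-0.65). The IGF carriers Igfbp4 (-0.39) and Igfbp2 (-0.53) were the 2 of 10 genes lower on the list of other IGF ligands, carriers and proteases, and both overlapped between groups. Leaving out 1 library moved Igfbp4 between -0.20 and -0.55, with -0.20 when control replicate 1 was removed. The lists of the growth hormone receptor cascade and of the hormone axis each held 1 lower gene, the adaptor Sh2b1 (-0.26) and the somatostatin receptor Sstr4 (-0.93, from 4.29 to 5.00 CPM in controls and 1.88 to 3.58 CPM in heat stress). Sh2b1 stood at -0.09 with length and GC offsets, and Sstr4 at -1.61 with the choroid plexus score. Of 7 male-biased liver genes, only the hydroxylase gene Cyp7b1 was tested in brain (0.33, adjusted p = 0.253, and 0.06 with length and GC offsets).

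The genes whose pattern over the 6 brain libraries lay closest to that of Igf1r were Gcn1, Prpf8 and Plxna1. Likeness was the mean absolute difference between log2 CPM profiles centred on their own means, which was 0.036, 0.047 and 0.048 for these genes, while the profile of Igf1r itself deviated from its mean by 0.37 on average. For Irs2 the closest were Plod1 (0.043), Eml1 (0.055) and Tspan33 (0.056), against its own mean deviation of 0.26. These are descriptions over 6 libraries.

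In liver no member passed the adjusted threshold either. The carrier gene Igfbp1 and the receptor gene Igf1r were higher in each heat-stressed library than in any control, Irs1 was lower on average, and the growth hormone receptor and Igf1 overlapped between the groups. edgeR's quasi-likelihood test, Benjamini-Hochberg adjusted called 0 of 12296 genes (0%), against 718 (5.84%) at an unadjusted p under 0.05, and DESeq2 on the 6 libraries called 61 of 11732 (0.52%), 0.281% lower. At the unadjusted level 1 of 10 members was higher, where 2.97% of all genes were, and 1 was lower, where 2.87% were. These were Igf1r and Irs1, and either was lost when certain single libraries were left out. Complete separation upwards was seen for 2 of 10 members and for 5.38% of all tested genes, and complete separation downwards for 0 of 10 members and 5.73% of all genes. The median log2 fold change was -0.00 over the 10 members and 0.01 over all tested genes.

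Ghr read 554, 824 and 733 CPM in control livers and 742, 502 and 562 CPM in heat-stressed livers. Its log2 fold change was -0.23 (SE 0.23, 95% interval -0.74 to 0.29). Igf1, the main hepatic product of growth hormone signalling, read 595, 722 and 794 CPM in controls and 719, 579 and 636 CPM in heat stress, with a log2 fold change of -0.13 (SE 0.20, 95% interval -0.57 to 0.32). Both genes overlapped between the groups, and for both the lowest control was replicate 1 and the lowest heat-stressed library was replicate 2, the libraries with muscle transcripts. Without these 2 libraries Ghr stood at -0.27 and Igf1 at -0.18, and with 1 library left out Ghr ran from -0.42 (without heat stress replicate 1) to -0.10 (without control replicate 2) and Igf1 from -0.25 (without control replicate 1) to -0.03 (without control replicate 3).

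None of the 3 carrier genes passed the unadjusted level in the edgeR fit of the 6 liver libraries. Igfals, the third protein of the circulating complex, read 114, 67.1 and 65.5 CPM in controls and 55.6, 60.5 and 75.7 CPM in heat stress. Its log2 fold change of -0.37 (SE 0.24, 95% interval -0.91 to 0.18) rested on control replicate 1, and without that library it was -0.06 (-0.03 without both libraries with muscle transcripts). With length and GC offsets it was -0.47 (SE 0.16) and passed the unadjusted level. Igfbp3 read 12.6, 11.4 and 28.1 CPM in controls and 28.9, 17.3 and 21.4 CPM in heat stress, with control replicate 3 inside the heat-stressed range and a log2 fold change of 0.38 (SE 0.34). Without that control it was 0.91 and passed the unadjusted level, and without heat stress replicate 1 it was 0.14.

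Igfbp1 and Igfbp3 are neighbours on chromosome 11 and point towards each other, Igfbp1 at chr11:7197782-7202546 on the plus strand and Igfbp3 at chr11:7206086-7213923 on the minus strand. Igfbp1 read 8.31, 52.7 and 59.3 CPM in control livers and 64.6, 84.1 and 98.1 CPM in heat-stressed livers. All heat-stressed libraries were above all controls, but control replicate 1 lay far below every other library. The log2 fold change was 1.04 (SE 0.64, 95% interval -0.47 to 2.56, adjusted p = 0.933, edgeR's quasi-likelihood test, Benjamini-Hochberg adjusted). Without control replicate 1 it was 0.54 (adjusted p = 0.298), and without both libraries that held muscle transcripts it was 0.52 (adjusted p = 0.338), and Igfbp1 passed the unadjusted level in both settings. The size thus depended on 1 library while the direction did not.

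Igf1r was the lowest member in liver, with 29, 11 and 14 counts in controls and 32, 46 and 32 counts in heat stress. These counts correspond to 1.87, 0.90 and 1.30 CPM against 2.38, 3.20 and 2.52 CPM. The groups did not overlap, and the control with the most Igf1r was replicate 1 and the heat-stressed library with the most was replicate 2. The log2 fold change was 0.97 (SE 0.35, 95% interval 0.19 to 1.75, adjusted p = 0.779). It was 1.14 (adjusted p = 0.357) without the 2 libraries with muscle transcripts. Brain transcripts, from a tissue with far more Igf1r, were present in control replicate 1, where Igf1r was highest among the controls, and without that library the log2 fold change was 1.29 (adjusted p = 0.241). All 6 genes of the meninges list were higher on average in heat stress, 1 of them without overlap. So were 4 of 4 Kupffer cell markers, 4 of 5 stellate cell markers and 3 of 4 sinusoidal endothelial markers. None of the genes on these lists passed the unadjusted level. Fibroblasts also express meninges genes, but Slc6a13 of that list averaged 186 CPM in control liver against 12.6 CPM in control brain. In liver it therefore cannot be read as a fibroblast gene, and its log2 fold change there was only 0.07 (SE 0.25). The stellate marker Des was highest in the 2 libraries with muscle transcripts. It had 324 counts in control replicate 1 and 1315 in heat stress replicate 2, against 46 to 75 in the other livers. The part of other cell types in the Igf1r counts was not tested.

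Igf2r and Insr were close to level in liver. Igf2r read 44.4, 32.6 and 33.5 CPM in controls and 28.9, 36.9 and 28.3 CPM in heat stress (log2 fold change -0.23, SE 0.19). Insr read 97.3, 103 and 118 CPM in controls and 121, 117 and 107 CPM in heat stress (log2 fold change 0.12, SE 0.17, 95% interval -0.25 to 0.49). For both genes the groups overlapped. Without the 2 libraries with muscle transcripts Igf2r stood at -0.22, Insr at 0.03 and Igfbp3 at 0.34. With 1 library left out Igf2r ran from -0.37 to -0.09 and Insr from 0.05 to 0.20.

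Irs1, which spans chr1:82233101-82291416 on the minus strand, read 27.6, 23.3 and 34.8 CPM in controls and 14.7, 25.4 and 17.0 CPM in heat stress. Heat stress replicate 2, the library with the most muscle transcripts, lay among the controls, and the other heat-stressed libraries lay below all of them. The log2 fold change was -0.58 (SE 0.24, 95% interval -1.12 to -0.05, adjusted p = 0.846), and -0.89 (adjusted p = 0.0897) without the 2 libraries with muscle transcripts. Irs2 read 5.80, 6.35 and 38.7 CPM in controls and 16.1, 39.2 and 27.2 CPM in heat stress. Control replicate 3 was nearly as high as the highest heat-stressed library, and the other controls were below all 3 of them. The log2 fold change was 0.71 with a 95% interval from -1.29 to 2.72. It was 2.18 (adjusted p = 0.225) without control replicate 3 and -0.08 (adjusted p = 0.989) without the 2 libraries with muscle transcripts, so no direction can be given for hepatic Irs2.

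**Figure D4:**
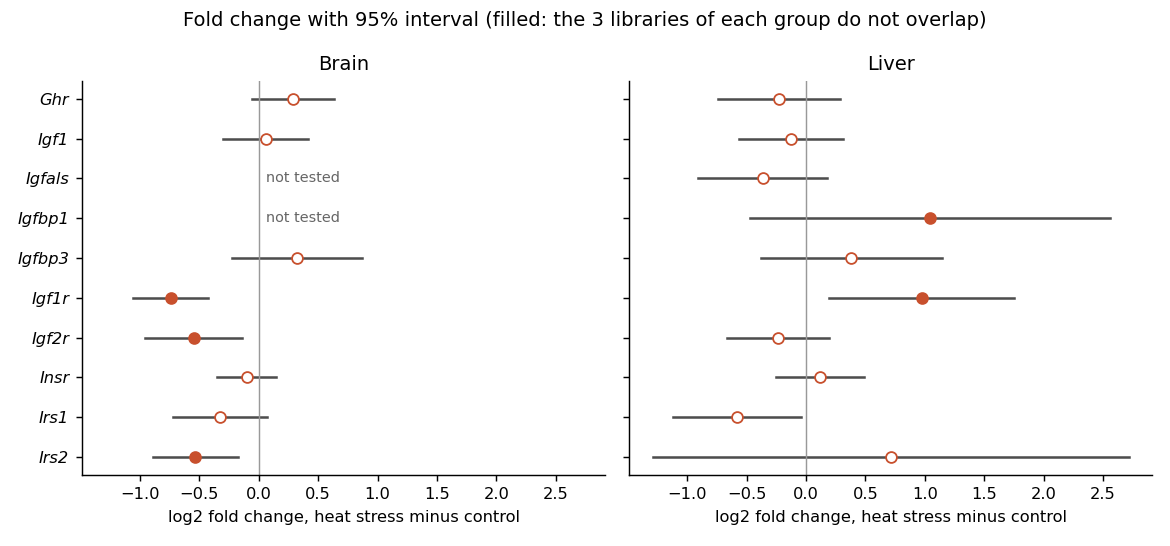
Log2 fold change (heat stress minus control) of each member in brain and liver, with the 95% interval as a line; filled points mark members whose 3 libraries per group do not overlap. Igf1r lies at -0.74 in brain and at 0.97 in liver, and the widest interval belongs to Irs2 in liver.

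The column names of 3 liver libraries, control replicate 2 and heat stress replicates 1 and 3, carry the suffix "2nd", whose meaning is not given in the sources used here. Within each set the difference was a description with at most 2 libraries a side. Igf1r was higher in heat stress by 1.31 on the log2 scale among the libraries with the suffix and by 0.97 among those without it, Igfbp1 by 0.59 and 1.91, and Irs1 was at -0.55 and -0.29. Igfbp3 differed in sign, at 1.12 with the suffix and -0.12 without it.

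Of the 84 further genes 67 were tested in liver, and 4 were higher and 3 lower at an unadjusted p under 0.05, where 2.97% and 2.87% of all tested genes were, with none past the adjusted threshold. On the list of the growth hormone receptor cascade and its feedback, 2 of 9 tested genes were higher. Socs3, a cytokine-induced inhibitor of JAK kinases, read 4.38, 5.05 and 3.63 CPM in controls and 7.51, 15.3 and 12.05 CPM in heat stress. Its log2 fold change was 1.41 (SE 0.29, 95% interval 0.77 to 2.05, adjusted p = 0.280 in edgeR's quasi-likelihood test and 0.0137 in DESeq2 on the 6 libraries). Every heat-stressed library exceeded every control. Cish, a STAT5-induced inhibitor, is named in addition to the gene with the smallest p of its list because its values were seen. It read 10.6, 8.39 and 16.3 CPM in controls and 32.3, 28.7 and 21.8 CPM in heat stress, again without overlap. Its log2 fold change was 1.23 (SE 0.26, 95% interval 0.65 to 1.82, adjusted p = 0.327 in edgeR and 0.0126 in DESeq2). Without the 2 libraries with muscle transcripts Socs3 stood at 1.15 and Cish at 1.12. The third feedback gene of this family, Socs2, read 3.61, 10.1 and 6.79 CPM against 14.0, 11.3 and 7.56 CPM and overlapped (0.69, SE 0.36). Their upstream partners Jak2 (0.03), Stat5a (-0.24) and Stat5b (0.19) stayed near level.

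Trib3, a stress-induced pseudokinase that binds AKT, was the 1 of 28 tested genes of the insulin receptor cascade past the unadjusted level in liver. It read 7.605, 7.25 and 5.02 CPM in controls and 12.6, 14.9 and 19.8 CPM in heat stress, without overlap. Its log2 fold change was 1.24 (SE 0.24, 95% interval 0.70 to 1.79, adjusted p = 0.251 in edgeR and 0.00987 in DESeq2), and 1.38 (adjusted p = 0.0185) without the 2 libraries with muscle transcripts. None of the 7 genes of the same list that were lower in brain passed the unadjusted level in liver, where their log2 fold changes ran from -0.02 for Rptor to 0.44 (SE 0.27) for Foxo3.

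With all 6 libraries, none of the listed hepatic targets of insulin passed the adjusted threshold. Of 10 genes that insulin induces, 9 had a negative log2 fold change (median -0.28), and 1, the lipase gene Pnpla3, was lower at the unadjusted level (-1.16, SE 0.50, adjusted p = 0.846). Pnpla3 was under 10 CPM in every library and its groups overlapped. Its value was -0.68 without control replicate 1, -1.85 without heat stress replicate 1 and -0.50 without both libraries with muscle transcripts. Of 6 genes that insulin represses, 3 had a positive and 3 a negative value. The pyruvate dehydrogenase kinase Pdk4 was lower (9.86, 15.2 and 18.3 CPM against 4.24, 12.8 and 3.54 CPM, log2 fold change -1.06, SE 0.45, adjusted p = 0.846), with heat stress replicate 2 among the controls. Pdk4 is abundant in skeletal muscle, and without the 2 libraries with muscle transcripts its log2 fold change was -2.12 with an adjusted p of 0.000138. Among the controls, replicate 1, which also held muscle transcripts, had the least Pdk4. The part of muscle in the Pdk4 values was not tested. The gluconeogenic genes Pck1 (0.44, SE 0.26) and G6pc (-0.01, SE 0.28) did not pass the unadjusted level.

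Of 7 male-biased liver genes that depend on pulsatile growth hormone, 3 had a positive and 4 a negative log2 fold change. Elovl3, a fatty acid elongase, was the clearest. It read 307, 480 and 338 CPM in controls and 202, 190 and 210 CPM in heat stress, and each heat-stressed library was below each control. This gave a log2 fold change of -0.90 (SE 0.21, 95% interval -1.38 to -0.43, adjusted p = 0.424 in edgeR and 0.00545 in DESeq2), and -1.0 (adjusted p = 0.0268) without the 2 libraries with muscle transcripts. The pheromone carrier Mup20 (0.51) and the cytochrome Cyp2d9 (0.52) had the opposite sign, so the list did not move one way. Among other IGF carriers, Igfbp2 read 335, 220 and 231 CPM in controls and 288, 373 and 583 CPM in heat stress, with overlap (0.66, SE 0.28, adjusted p = 0.846). Leaving out heat stress replicate 3 put it at 0.32. Of the hormone axis only the somatostatin receptor Sstr2 was tested in liver, at 0.33 to 1.48 CPM (0.25, SE 0.55).

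**Figure D5:**
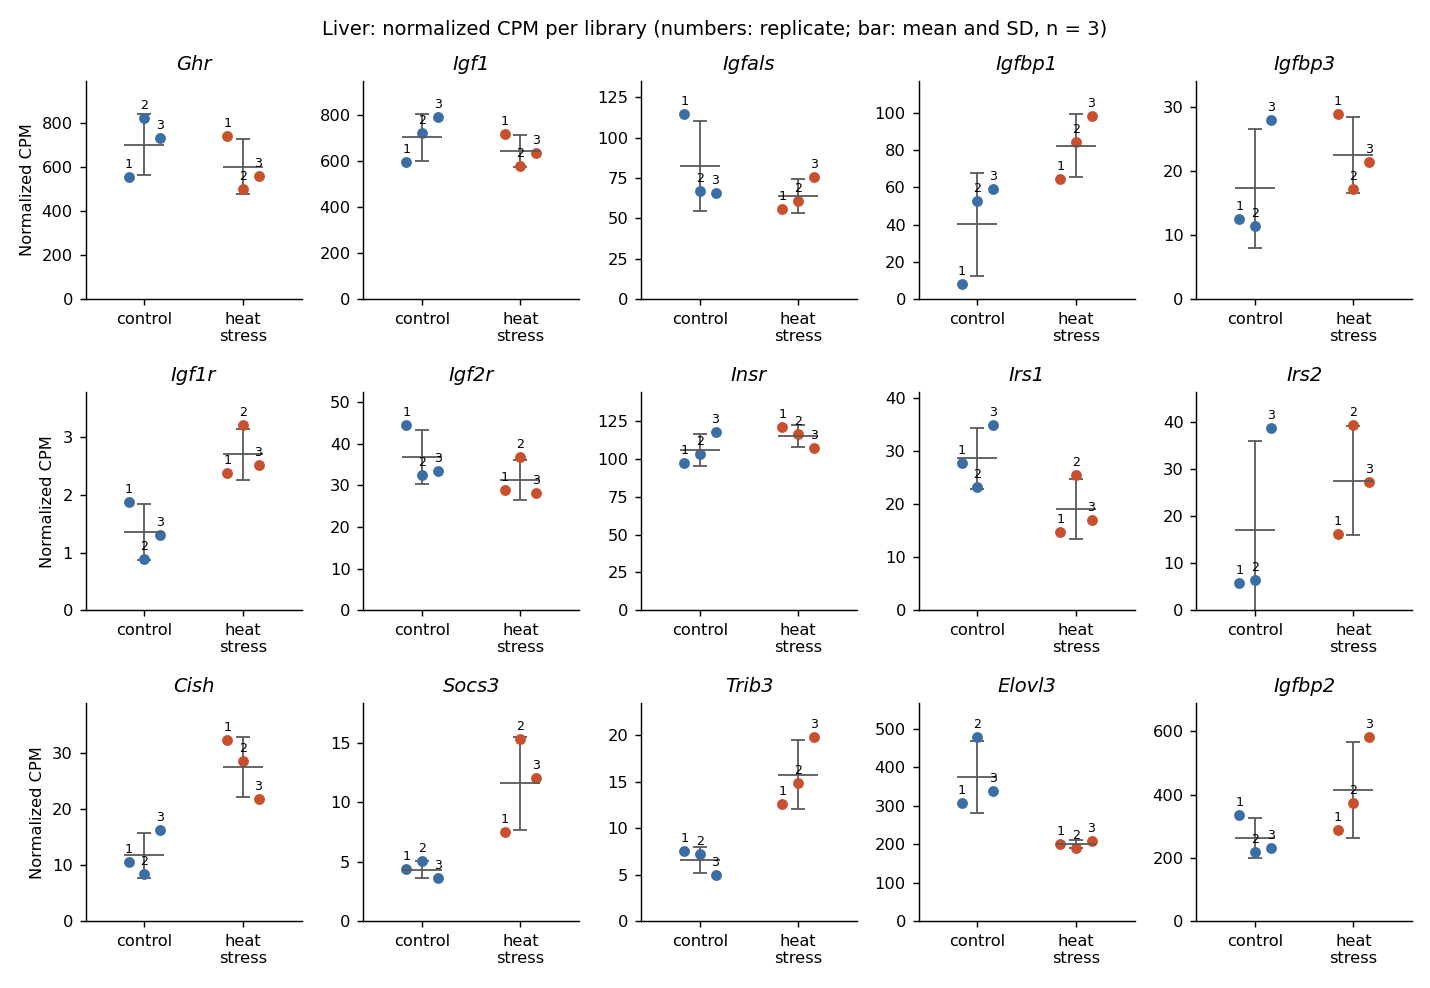
Normalized CPM in the liver libraries for the 10 members and for Cish, Socs3, Trib3, Elovl3 and Igfbp2, with replicate numbers at the points, group means as horizontal ticks and SD as bars (n = 3 per group). Control replicate 1 is far below the rest for Igfbp1 (8.31 CPM), and the groups are separate for Igfbp1, Igf1r, Cish, Socs3, Trib3 and Elovl3.

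The patterns closest to hepatic Igf1r over the 6 liver libraries were those of Pf4 (0.10), Nck2 (0.11) and Lpin1 (0.12), given as the same mean absolute difference, against a mean deviation of 0.48 for Igf1r itself. At 11 to 46 counts per library, part of the Igf1r profile is counting error. Hepatic Irs1 was followed most closely by Fign (0.091), Arhgap32 (0.092) and Kmt2d (0.11), against its own 0.35.

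The heat stress effect was also compared between the tissues, in 1 fit over the 12 libraries for the 8 members expressed in both. For Igf1r the log2 effect in liver minus that in brain was 1.68 (SE 0.35, 95% interval 0.92 to 2.44), with opposite signs in the 2 tissues and no overlap of groups in either. Its adjusted p was 0.417 in edgeR's quasi-likelihood test, Benjamini-Hochberg adjusted, which called 1 of 15824 genes (0.00632%), and 0.00242 in DESeq2, which called 48 of 10697 (0.449%). Igf1r was the 1 of 8 members under an unadjusted p of 0.05, where 9.64% of all genes were. Irs2 gave the next largest difference (1.28, SE 0.83, adjusted p = 0.610) and inherits the spread of hepatic Irs2, running from 0.87 without liver control replicate 2 to 2.69 without liver control replicate 3. The differences for Ghr (-0.51), Igf1 (-0.19), Igfbp3 (0.06), Igf2r (0.29), Insr (0.21) and Irs1 (-0.26) each had a 95% interval that included 0.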

How the data were processed

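Poly-A selected, stranded mRNA libraries of brain and liver were sequenced by the authors and deposited as 1 table of raw counts per gene and library. The authors' processing notes name Trimmomatic 0.39, HISAT2 2.2.1, the genome build mm10 and featureCounts from Subread 2.0.1. A second pipeline in the study's methods ends in HTSeq counts, and the strand setting of the counting is not given in the sources used here. Deposited tables of the authors' own DESeq2 fold changes and p-values were not used.

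Genes were kept with filterByExpr (minimum count 10, minimum total 15), which left 14806 genes in brain and 12296 in liver. Counts were TMM-normalized within each tissue and tested with edgeR 4.0.16 (quasi-likelihood test, robust) and Benjamini-Hochberg adjustment over all tested genes, with a call at an adjusted p under 0.05. Each group had 3 libraries, which the study describes as 3 mice, and differences between tissues used 1 fit of all 12. CPM values, intervals at 95% and group overlap come from these fits and cover the spread between libraries. The floor was 3 counts per library. Exon lengths and positions are from GENCODE M21 (GRCm38), and promoters from RefSeq. Scripts were tested on simulated data.

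The members and the gene lists were chosen with earlier results of these data known. All members are named. From each other list, genes past the adjusted threshold are named or, with none, the gene with the smallest unadjusted p, and other genes named were chosen after their values were seen. Alternatives were other normalizations, filters, DESeq2 1.42.0, length and GC offsets (mgcv 1.9.3), covariates for choroid plexus, muscle and the column suffix, and leaving out libraries.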

Additional observations from a re-analysis of the deposited data

Results flagged for a closer look

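The heat stress effect on Igf1r differed between liver and brain by 1.68 on the log2 scale (SE 0.35), higher in 3 of 3 heat-stressed livers and lower in 3 of 3 heat-stressed brains than in any control of the same tissue. It stands here because every library of one tissue lay on one side of its controls and every library of the other tissue on the opposite side. Of all tested genes, 12% lay wholly below the controls in brain and 5.38% wholly above them in liver. The share of genes with both patterns is not given here. The interaction test used the same libraries, so its p is not separate support for a pattern picked for its separation. The interaction test gave an unadjusted p of 0.000337 and an adjusted p of 0.417 in edgeR's quasi-likelihood test, and the adjusted p ranged from 0.00242 (DESeq2) to 0.676 over the alternatives. The difference itself ranged from 1.43 to 2.10 over these alternatives, which did not include length and GC offsets or the choroid plexus score. Offsets for length and GC content put the brain side at -0.42 in place of -0.74. The liver side rests on 11 to 46 counts per library.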

How the results depend on the processing

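The number of genes called in brain was 0 in each edgeR alternative and when any 1 library was left out, but 618 with DESeq2 on the 6 libraries and 11 with DESeq2 on all 12. In liver it was 2 with upper-quartile normalization, 3 with total counts, 61 and 168 with DESeq2 on 6 and 12 libraries, 14 with all 12 libraries in 1 edgeR fit, 8 without a filter, 18 with length and GC offsets, 65 with a muscle score, 81 without both libraries that held muscle transcripts and 6 with the column suffix as a covariate. Leaving out 1 liver library gave 0 to 25 calls, with 25 when control replicate 1 was removed. For the difference between tissues it was 0 with DESeq2 size factors, 0 without a filter and 48 with DESeq2, and 0 to 4 when 1 library was left out, with 4 without liver control replicate 1 and 3 without liver control replicate 3. The causes were not tested.

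No label says that replicate numbers pair the samples. Same-numbered control and heat-stressed libraries had correlations of deviations of -0.29, 0.19 and -0.20 in brain and -0.58, -0.51 and -0.09 in liver. The highest in liver, 0.55, joined control replicate 1 and heat stress replicate 2, the libraries with muscle transcripts. With 3 libraries per group these correlations cannot exclude pairing. With the replicate number as a block, edgeR called 0 genes in brain, 1 in liver and 0 for the difference between tissues.

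Most members kept their direction in each alternative run. In brain these were Ghr, Igfbp3, Igf1r, Igf2r and Irs2. In liver they were Ghr, Igfals, Igfbp1, Igfbp3, Igf1r, Igf2r, Insr and Irs1. A kept direction alone says little, since Insr in liver kept it with values of only 0.03 to 0.20. Igf1r in liver gave no value under the stricter count filter. Signs turned for Igf1 in brain (-0.0603 with offsets, -0.0283 to 0.15 with 1 library left out), Insr in brain (0.12 with offsets), Irs1 in brain (0.0219 with the choroid plexus score), Igf1 in liver (0.0201 with offsets), Irs2 in liver (-0.0752 without both libraries with muscle transcripts), Sstr2 in liver (-0.0877 to 1.23 with 1 library left out) and the Igfbp3 difference between tissues (-0.19 to 0.54 with 1 library left out). The number of brain members under an unadjusted p of 0.05 was 3 of 8. It was 1 with length and GC offsets, 2 with the choroid plexus score, with all 12 libraries in either tool and without heat stress replicate 2 or control replicate 1, 4 without heat stress replicate 3 and 5 without heat stress replicate 1. In liver, Irs1 no longer passed that level under the replicate block and without control replicate 3 or heat stress replicate 1 or 3, and Igf1r no longer passed it without control replicate 2 or 3 or heat stress replicate 2. Igfbp1 in turn passed it under the block, in the 12-library edgeR fit, without control replicate 1 and without both libraries with muscle transcripts, Igfals with length and GC offsets, and Irs2 and Igfbp3 without control replicate 3. Hepatic Igf1r had 11 to 46 counts per library, and Igfals and Igfbp1 were too low to test in brain.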
